A study of Mus musculus with 24 samples.

Results

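The 7 genes described here move calcium through the cells of the distal nephron of the mouse kidney, or sense it there. They are the entry channel Trpv5, the calcium-binding proteins Calb1 and S100g, the exit routes Slc8a1, Atp2b1 and Atp2b4, and the receptor Casr. They were taken by gene symbol from the deposited table, which holds 56748 gene identifiers. All 7 were found, and all 7 were among the 17333 genes with a mean of at least 10 normalized counts, which were tested. Kidney RNA selected for poly A tails was sequenced in 24 libraries, 6 in each of 4 groups. The groups were males in the middle of the active period, males in the middle of the inactive period, females in the middle of the active period and females in the middle of the inactive period. No group carried a named treatment or genetic change, and the labels name no strain, age or hour of collection. Whether each library came from an animal of its own is not stated, so a p-value below speaks of the spread among these libraries, which may be technical in part.

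Mice are active at night, and the period of activity sets when they eat and drink. In the distal convoluted and connecting tubules calcium is taken back from the urine through the cell. It enters through the channel Trpv5 on the side of the urine, is carried across the cell by calbindins, and is passed to the blood by the sodium-calcium exchanger and by calcium pumps of the plasma membrane. Parathyroid hormone and active vitamin D raise this transport. The calcium-sensing receptor Casr lies mainly on the blood side of thick ascending limb cells, where it holds back the uptake of calcium between cells. Slc8a1, Atp2b1 and Atp2b4 are also used by vessel and muscle cells, so their RNA in a whole kidney is not that of tubules alone. In RNA of a whole organ, fewer cells of a type and less RNA per cell cannot be told apart.

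All values are normalized counts, the authors' reads per gene divided by a size factor for the library, unless a level per length is named. Recovered reads numbered 31.04 to 39.30 M per library. The libraries matched their labels: the Y-linked Ddx3y was at 1379 to 2361 in males and at most 4.96 in females, and the clock gene Arntl was at 405 to 1336 in active and 36.2 to 164 in inactive libraries. The summed markers of proximal tubule, the bulk of the kidney cortex, ranged from 178575 to 257605. Of 5 markers of the adrenal cortex, which lies next to the kidney, 2 were at 0 in every library, and the sum of the 5 was at most 254. The members rested on at least 302 recovered reads in any library, a count at which counting error alone gives a coefficient of variation of 5.75%.

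Windows around the transcription start were in the RefSeq promoter table for 6 of the 7 genes, on the build GRCm38.p6. The 250 bases before the start are shown for Slc8a1, the member that rose most with the active period, for Trpv5, the entry channel, and for S100g, the member that passed in no contrast. For Atp2b1 a site of 30 bases is shown, because it holds the only E-box found in these windows. Capitals mark a motif match, and each sequence runs 5′ to 3′ on the strand of the gene.
Slc8a1, chr17:81738388-81738637, minus strand: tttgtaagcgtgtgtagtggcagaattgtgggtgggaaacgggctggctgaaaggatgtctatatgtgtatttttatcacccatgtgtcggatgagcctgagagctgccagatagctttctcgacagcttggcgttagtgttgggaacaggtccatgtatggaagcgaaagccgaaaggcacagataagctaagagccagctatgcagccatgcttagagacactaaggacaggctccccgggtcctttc
Trpv5, chr6:41680724-41680973, minus strand: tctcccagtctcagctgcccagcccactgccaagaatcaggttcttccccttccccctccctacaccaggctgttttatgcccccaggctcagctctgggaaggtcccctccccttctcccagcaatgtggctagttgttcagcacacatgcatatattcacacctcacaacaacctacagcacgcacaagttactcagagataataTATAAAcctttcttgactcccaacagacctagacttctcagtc
S100g, chrX:162964600-162964849, minus strand: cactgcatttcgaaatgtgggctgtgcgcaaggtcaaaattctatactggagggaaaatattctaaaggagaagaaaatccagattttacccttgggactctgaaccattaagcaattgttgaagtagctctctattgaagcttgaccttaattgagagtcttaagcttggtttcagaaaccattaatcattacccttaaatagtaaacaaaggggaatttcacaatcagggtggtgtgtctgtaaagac
Atp2b1, chr10:98914638-98914667, plus strand: cgcgggccgcgtCACGTGaccgcgcccagc

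The motifs were searched on both strands in the 300 bases from 250 before to 50 after each start, in 7 windows of the members and in all 32851 windows of the table. The E-box CACGTG, the element bound by the clock factors, was present in 1 window, that of Atp2b1, where it covers bases 9 to 14 after the start. It is present in 7.15% of all windows. The TATA box TATAAA was in 2 windows, at bases -43 to -38 in Trpv5 and at bases 1 to 6 in S100g, and is in 13.6% of all windows. The GC box GGGCGG was in 2 windows, both of Atp2b1, where 3 of the matches before the upstream start overlap each other, and is in 35.7% of all windows. The D-box TTATGNAA, the ROR element TAGGTCA and the CCAAT box, present in 3.38%, 2.61% and 37.4% of windows, had no match in the 7. Both spellings of the vitamin D element, the estrogen element and the shared glucocorticoid and androgen element, each in at most 0.07% of windows, had none either. A match describes these letters and is not a site of binding, and a missing match says only that the letters are not in these windows.

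Males had less RNA of the calcium route than females, and between the periods the genes called were those of the exit and, in males, Calb1. In both periods Trpv5, Calb1, Slc8a1, Atp2b1, Atp2b4 and Casr were lower in males, with no overlap between the 6 male and the 6 female libraries, while S100g did not pass, except in the inactive period under scaling to equal totals. In the active period Slc8a1 and Atp2b4 were higher than in the inactive period in males and in females. Atp2b1 was called higher in females alone and Calb1 in males alone. For neither was the change called different between the sexes. Trpv5, S100g and Casr passed in neither sex. The p-values below come from limma on log2 of the normalized count plus 1, adjusted by Benjamini and Hochberg over all genes tested, and a gene passed at an adjusted p under 0.05.

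**Figure D1:**
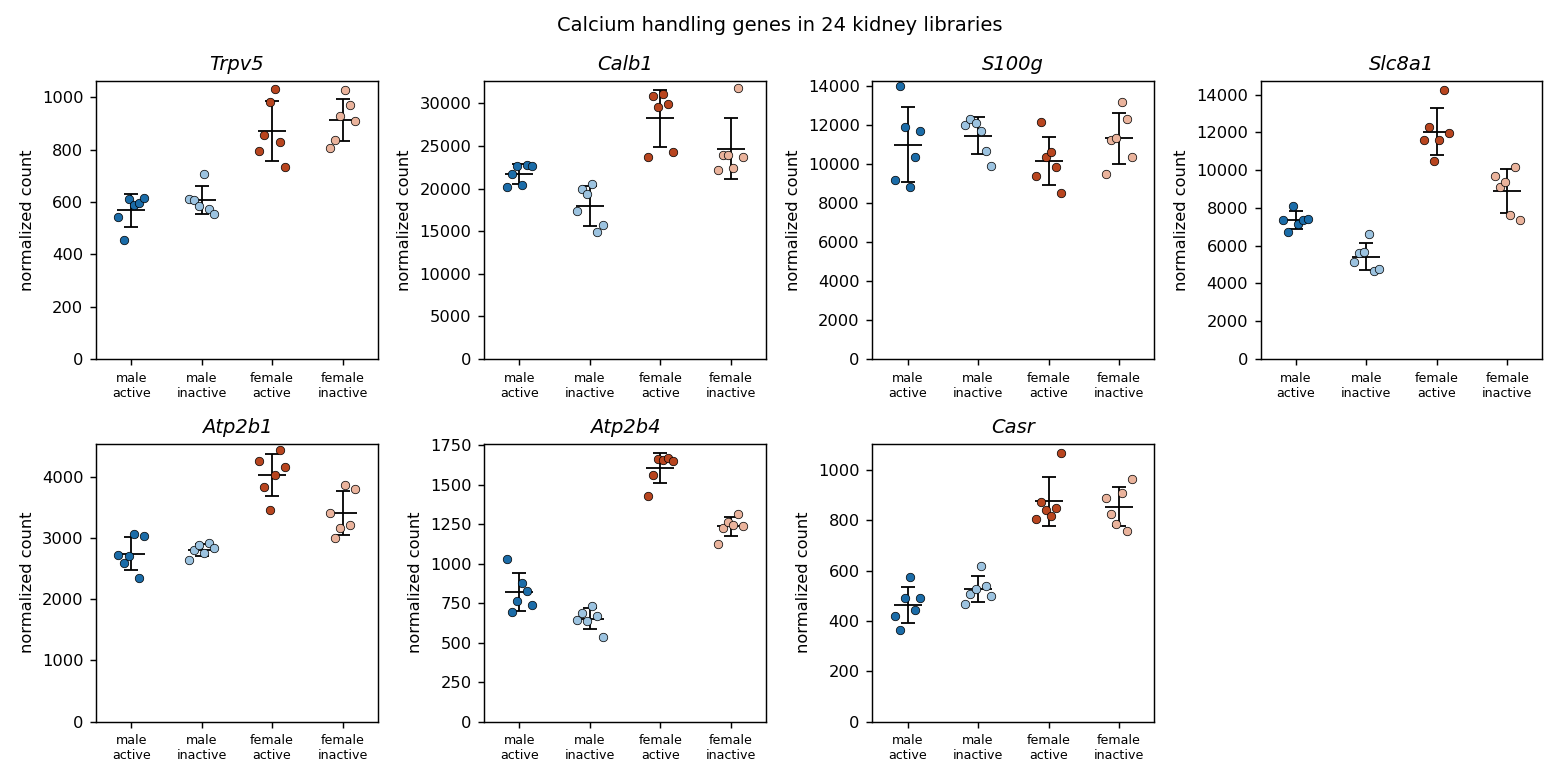
Normalized counts of the 7 genes (vertical axis, from 0) in each of the 24 libraries, by group. Each point is 1 library, and the bars give the mean and SD of 6 libraries. Male points lie below female points of the same period for every gene except S100g, and active points of Slc8a1 lie above inactive points in each sex.

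Trpv5 (ENSMUSG00000036899, chromosome 6, minus strand) encodes the channel that lets calcium into the cell and sets the pace of the route. Its lowest, median and highest libraries were at 453, 592 and 616 normalized counts in active males and at 734, 843 and 1033 in active females. The inactive libraries were at 555, 596 and 706 in males and at 807, 918 and 1028 in females. Every male library was below every female library of its period, while the 2 periods overlapped within each sex. Means were 568 ± 62.0 in active males and 872 ± 114 in active females (SD, n = 6 each), a log2 fold of -0.62 ± 0.09 (SE), adjusted p = 2.97e-07. Inactive means were 607 ± 53.2 in males and 913 ± 82.0 in females, a log2 fold of -0.59 ± 0.09, adjusted p = 8.15e-07. For active against inactive, the log2 fold of Trpv5 was -0.10 in males, with a 95% interval of -0.27 to 0.07, and -0.07 in females, with an interval of -0.25 to 0.10 (limma, adjusted p = 0.460 and 0.646).

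Trpv6, the closest relative of Trpv5 and the main calcium channel of the intestine, was named after its values were seen. It was low, with means of 44.9 ± 11.5 in active males, 45.1 ± 10.2 in inactive males, 55.8 ± 11.7 in active females and 62.5 ± 21.8 in inactive females, and it passed in no contrast. Trpv4, a channel opened by swelling and warmth, took another course than Trpv5. It was at 3458 ± 218 in active and 2553 ± 146 in inactive males, and at 2732 ± 249 in active and 1909 ± 269 in inactive females. It was thus higher in the active period, with log2 folds of 0.44 ± 0.07 in males (adjusted p = 1.68e-04) and 0.52 ± 0.07 in females (adjusted p = 6.96e-06), and it was higher in males, by log2 folds of 0.34 ± 0.07 in the active period (adjusted p = 1.88e-04) and 0.43 ± 0.07 in the inactive period (adjusted p = 1.12e-05).

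Calb1 (ENSMUSG00000028222, chromosome 4, plus strand) encodes calbindin-D28k, which binds calcium in the cytosol of distal tubule cells. Its lowest, median and highest libraries were at 20162, 22159 and 22761 in active males and at 23648, 29751 and 31115 in active females. The inactive libraries were at 14865, 18336 and 20521 in males and at 22196, 23814 and 31763 in females. The sexes did not overlap within a period, and the periods overlapped within each sex, in males through the highest inactive library. Calb1 was lower in males in the active period, at 21719 ± 1175 and 28228 ± 3359 in males and females (log2 fold -0.37 ± 0.09, adjusted p = 7.59e-04). It was also lower in the inactive period, at 17958 ± 2342 and 24647 ± 3571 (log2 fold -0.46 ± 0.09, adjusted p = 9.13e-05). Active males were above inactive males by a log2 fold of 0.28 ± 0.09 (adjusted p = 0.0303). That call was lost in 11 of 35 alternatives, with adjusted p between 0.0502 and 0.0933, 6 of them with 1 library left out: replicate 2, 3, 5 or 6 of the active males, or replicate 5 or 6 of the inactive males. In females the log2 fold was 0.20 ± 0.09 (adjusted p = 0.141), and 0.27 without replicate 5 of the inactive females, the library at 31763 (adjusted p = 0.0185).

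S100g (ENSMUSG00000040808, chromosome X, minus strand) encodes calbindin-D9k, a smaller calcium-binding protein that is a target of vitamin D and, in the uterus, of estrogen. Its libraries ran from 8833 through a median of 11040.4 to 13997 in active males and from 8520.1 through 10118 to 12192 in active females. Inactive libraries ran from 9918 through 11882 to 12337 in males and from 9501 through 11281 to 13200.3 in females. All 4 groups overlapped each other. The log2 fold of males against females was 0.11 ± 0.10 in the active period (95% interval -0.10 to 0.31, adjusted p = 0.372) and 0.02 ± 0.10 in the inactive period (-0.18 to 0.23, adjusted p = 0.865). Under scaling to equal library totals these log2 folds turned to -0.17 and -0.26, the second with an adjusted p of 0.0235, and under upper quartile scaling the second was -0.048. Equal totals moved the median of all genes tested to -0.32 in both periods. For active against inactive they were -0.07 in males (-0.28 to 0.13) and -0.16 in females (-0.36 to 0.05), with adjusted p of 0.669 and 0.335.

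Since both calbindins are read from the same library, their ratio does not depend on scaling. This comparison was chosen after the values were seen. S100g relative to Calb1 ran from 0.433 through a median of 0.487 to 0.645 in active males and from 0.329 through 0.351 to 0.397 in active females, without overlap. Inactive libraries had ratios from 0.571 through 0.630 to 0.719 in males and from 0.388 through 0.453 to 0.590 in females, and 1 female library reached into the male range. The geometric mean of the ratio was 1.39-fold higher in males than in females in each period. Active libraries were at 0.781 times the inactive ratio in males and at 0.781 times in females. With any 1 library left out, these folds were 1.32 to 1.43 in the active period, 1.35 to 1.46 in the inactive period, 0.742 to 0.804 in males and 0.755 to 0.821 in females. Since Calb1 and S100g had been seen to move apart before the ratio was formed, it is given as a description, with no test.

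**Figure D2:**
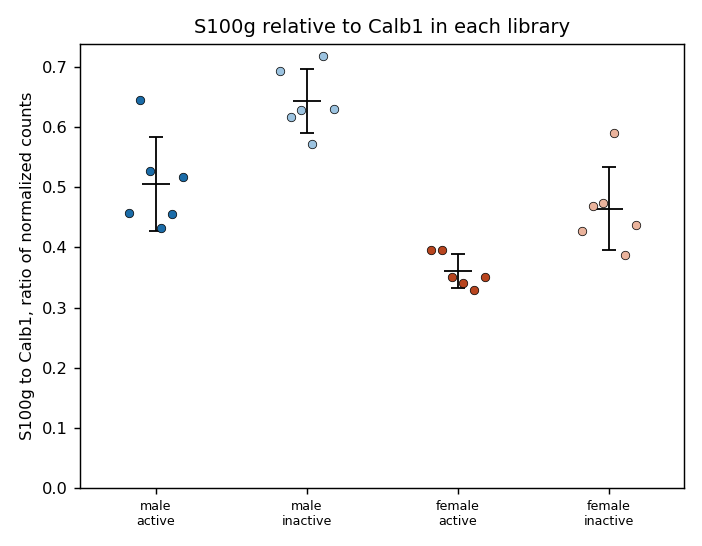
Normalized count of S100g divided by that of Calb1 (vertical axis, no unit, from 0) in each library, by group. Points are libraries, and bars give the mean and SD of 6. The ratio averaged 0.506 in active males, 0.643 in inactive males, 0.361 in active females and 0.465 in inactive females.

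Slc8a1 (ENSMUSG00000054640, chromosome 17, minus strand) encodes the sodium-calcium exchanger NCX1, the main exit of calcium towards the blood in these cells. Its lowest, median and highest libraries were at 6729, 7367 and 8124 in active males and at 4669, 5373 and 6637 in inactive males. In females they were at 10505, 11777 and 14235 in the active period and at 7368, 9237 and 10185 in the inactive period. The active and inactive libraries were apart in each sex, and so were males and females in each period. Means were 7361 ± 455 in active and 5417 ± 729 in inactive males, a 1.37-fold difference (log2 fold 0.45 ± 0.08, adjusted p = 6.87e-04). In females they were 12024 ± 1237 and 8892 ± 1145 in the active and inactive periods, a 1.36-fold difference (log2 fold 0.44 ± 0.08, adjusted p = 5.04e-04). The difference between these changes, male minus female, was 0.01 on the log2 scale, with a 95% interval of -0.23 to 0.25. Males against females gave log2 folds of -0.70 ± 0.08 in the active period (adjusted p = 4.39e-08) and -0.71 ± 0.08 in the inactive period (adjusted p = 4.43e-08). In the GRCm38 annotation 296 exon bases of Slc8a1, 1.57% of its exons, are shared with an antisense gene, and reads of the 2 strands there cannot be told apart, because no source used here names the strand setting of the counting.

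Atp2b4 (ENSMUSG00000026463, chromosome 1, minus strand) encodes the calcium pump PMCA4 of the plasma membrane. Its lowest, median and highest libraries were at 696, 793 and 1027 in active males and at 538, 656 and 732 in inactive males. In females they were at 1424, 1653 and 1670.3 in the active period and at 1127, 1243 and 1311 in the inactive period. Every male library was below every female one, whatever the period. The 2 periods were apart in females and overlapped in males. The mean was 1603 ± 96.4 in active and 1236 ± 61.2 in inactive females (log2 fold 0.37 ± 0.08, adjusted p = 8.22e-04), and 821 ± 119 in active and 652 ± 65.5 in inactive males (log2 fold 0.33 ± 0.08, adjusted p = 0.00461). Its log2 folds between the sexes were the largest among the 7 genes in each period: males were 1.97-fold lower in the active period (log2 fold -0.98 ± 0.08, adjusted p = 3.49e-12) and 1.90-fold lower in the inactive period (log2 fold -0.93 ± 0.08, adjusted p = 1.49e-11).

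Atp2b1 (ENSMUSG00000019943, chromosome 10, plus strand) encodes PMCA1, the pump found in nearly all cells. Its libraries ran from 2348 through a median of 2715 to 3058 in active males and from 2639 through 2823 to 2916 in inactive males. In females they ran from 3464 through 4098 to 4435 in the active period and from 2993 through 3309.6 to 3870.2 in the inactive period. The periods overlapped in each sex, and males lay below females in each period. Active females were above inactive females, at 4031 ± 344 and 3407 ± 359 (log2 fold 0.24 ± 0.07, adjusted p = 0.0112). Active and inactive males were at 2742 ± 269 and 2805 ± 101 (log2 fold -0.04 ± 0.07, adjusted p = 0.748). The difference between the 2 changes, male minus female, was -0.28 ± 0.09 on the log2 scale, with an adjusted p of 0.0934 in limma. It passed without replicate 3 of the active females, at -0.33 and an adjusted p of 0.0498. Males were lower by log2 folds of -0.56 ± 0.07 in the active period (adjusted p = 2.29e-08) and -0.27 ± 0.07 in the inactive period (adjusted p = 8.81e-04).

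Of the related exit genes, the pump Atp2b2 and the exchanger Slc8b1, which moves calcium out of mitochondria, were also lower in males. Atp2b2 was at 135 ± 20.1 and 206 ± 12.7 in active males and females (log2 fold -0.61 ± 0.15, adjusted p = 7.27e-04), and Slc8b1 was at 345 ± 72.6 and 438 ± 77.4 (log2 fold -0.35 ± 0.13, adjusted p = 0.0206). In the inactive period their log2 folds were -0.48 ± 0.15 (adjusted p = 0.00730) and -0.49 ± 0.13 (adjusted p = 0.00197). Of the 10 relatives listed, 5 were under the filter, among them the exchangers Slc8a2 and Slc8a3 and the pump Atp2b3, whose group means were at most 10.7.

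Casr (ENSMUSG00000051980, chromosome 16, minus strand) encodes the receptor that senses calcium outside the cell. Its lowest, median and highest libraries were at 365, 468 and 573 in active males and at 806, 846 and 1068 in active females. Inactive libraries were at 468, 517 and 619.9 in males and at 756, 857 and 963 in females. Every male library was below every female one, and the periods overlapped in each sex. Casr was lower in males in the active period, at 464 ± 71.5 and 876 ± 97.1 (log2 fold -0.92 ± 0.09, adjusted p = 4.18e-10), and in the inactive period, at 527 ± 52.0 and 854 ± 78.8 (log2 fold -0.70 ± 0.09, adjusted p = 1.31e-07). For active against inactive, its log2 fold was -0.19 in males (95% interval -0.38 to -0.01, adjusted p = 0.151) and 0.04 in females (-0.15 to 0.22, adjusted p = 0.857). The male value passed without replicate 4 of the active males, at -0.25 and an adjusted p of 0.0486.

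Set per length, the calbindins stood far above the membrane proteins. Per kilobase of annotated exon, and over all 24 libraries, S100g was at 22900.3 ± 2947 normalized counts and Calb1 at 4775 ± 959. Slc8a1 followed at 448 ± 139, Trpv5 at 228 ± 53.8, Atp2b1 at 213 ± 39.2, Casr at 144 ± 43.1 and Atp2b4 at 88.0 ± 31.6 (SD over libraries of all groups). In each of the 4 groups the order was the same except for Trpv5 and Atp2b1, and the other neighbours differed by more than the SD of either within the group. Trpv5 was at 175 ± 19.1 and Atp2b1 at 180.2 ± 17.7 in active males, and they were at 187 ± 16.4 and 184 ± 6.61 in inactive males and at 269 ± 35.1 and 265 ± 22.6 in active females, within the SD of each other. In inactive females Trpv5, at 282 ± 25.3, was above Atp2b1, at 224 ± 23.6, by more than either SD. The exon length counts all annotated exons of a gene, 480 bases for S100g and 18807 for Slc8a1, so genes with exons not used in the kidney come out too low.

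Set side by side over the 7 genes, the sex difference covered 6 and the period difference 3 in each sex. In the active period 6 of 7 members were called lower in males than in females, where 60.6% of all genes tested were called in either direction and 30.5% as lower. Male libraries lay below female libraries without overlap for these 6, as for 16.1% of all genes. In the inactive period the same 6 were called lower, where 55.7% of all genes were called in either direction and 27.8% as lower, and 13.7% as lower without overlap. The median log2 fold of the members was -0.62 in the active and -0.59 in the inactive period, beside -0.05 and -0.04 over all genes tested. Scaling to equal totals moved the median of all genes to -0.32 in both periods and upper quartile scaling to -0.12 and -0.11. Under equal totals the 6 called members ran from -1.25 in Atp2b4 to -0.65 in Calb1 in the active period, and from -1.21 in Atp2b4 to -0.55 in Atp2b1 in the inactive period, each of them below the median of all genes.

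For active against inactive libraries, 3 of 7 members were called in males, all higher, where 15.4% of all genes tested were called and 8.43% as higher. In females 3 of 7 were called, all higher, against 15.0% of all genes and 7.97% as higher. Active libraries lay above inactive libraries without overlap for 1 member in males and 2 in females, beside 2.28% and 4.40% of all genes. The median log2 fold of the members was -0.04 in males and 0.20 in females, beside 0.01 and -0.00 over all genes. For the difference between the sexes in this change, limma called 0 of 7 members, where it called 2.71% of all genes. At an unadjusted limma p under 0.05 there was 1 member, Atp2b1, and edgeR and DESeq2 on recovered reads called 0 and 0. The comparisons of the periods and of the sexes use the same libraries, so their values are given beside each other and were not set against each other.

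**Figure D3:**
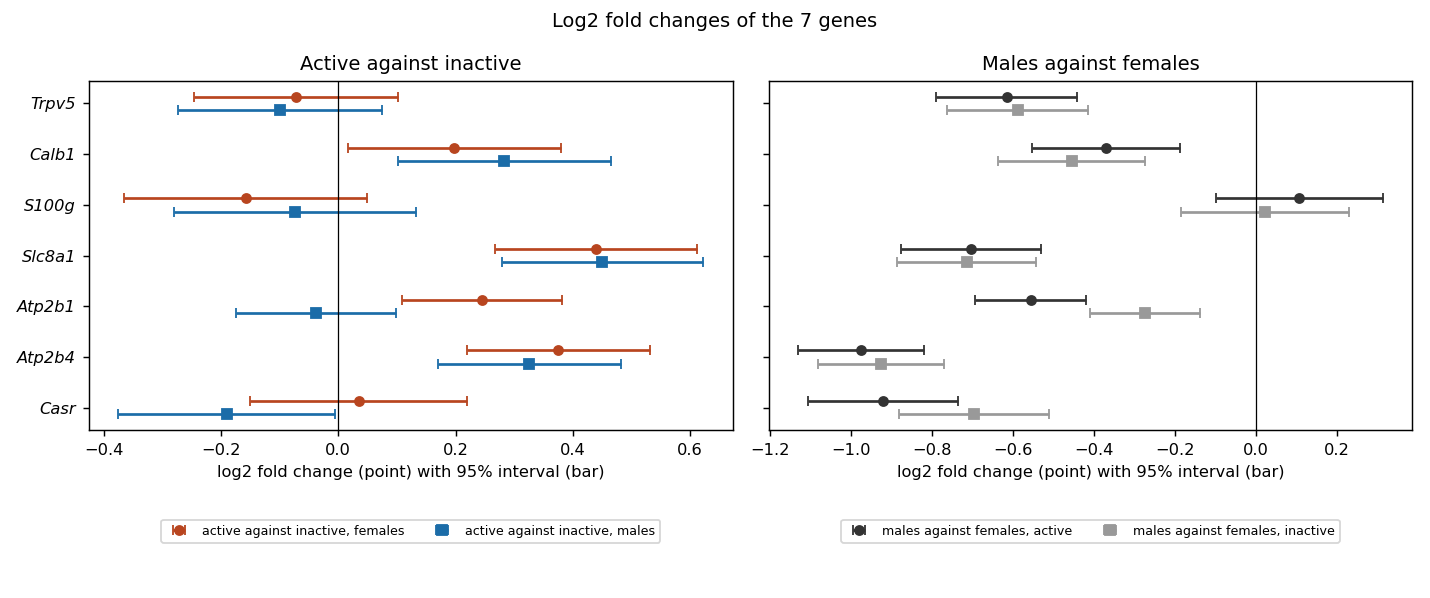
Log2 fold changes of the 7 genes (horizontal axis) with 95% intervals, for active against inactive libraries in females and males (left) and for males against females in each period (right). The left and right axes differ in range. On the right, 6 genes lie below 0 in both periods and S100g spans 0. On the left, the intervals of Slc8a1, Atp2b4 and Calb1 lie above 0 in both sexes, though Calb1 was not called in females.

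Genes that act on Trpv5 or on hormone signals to it did not share 1 direction, and neither did all genes tested. Of all genes tested, 60.6% were called between the sexes in the active period, 5219 higher and 5290 lower in males. In the inactive period 55.7% were called, 4844 higher and 4818 lower. Between the periods 15.4% were called in males and 15.0% in females. These shares belong beside the counts of every list and marker set below. Of 16 regulators and partners of Trpv5, 4 were higher and 4 lower in active males than in active females, and 5 were higher and 5 lower in the inactive period. Calm3, 1 of the genes for calmodulin, which closes Trpv5 when calcium rises, was at 6482 ± 625 and 4152 ± 133 in active males and females (log2 fold 0.64 ± 0.05, adjusted p = 4.60e-12). Wnk1, a kinase that acts on salt transport, was at 14707 ± 1054 and 22157 ± 1914 in inactive males and females (log2 fold -0.59 ± 0.06, adjusted p = 1.05e-09). Between the periods 6 of the 16 were higher in active males, and 3 were higher and 1 lower in active females. Sgk1, a kinase induced by corticosteroids that raises Trpv5 at the membrane in cell models, was at 15255 ± 2662 in active and 6414 ± 1626 in inactive females (log2 fold 1.27 ± 0.29, adjusted p = 0.00474). In males Sgk1 was at 3802 ± 863 in active and 3083 ± 1849 in inactive libraries and was not called between the periods. The change of Sgk1 between the periods was not called different between the sexes. Sgk1 was called lower in males than in females in both periods.

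In the list of vitamin D, parathyroid hormone and Fgf23 signalling, 3 of 11 genes were higher and 5 lower in active males than in active females, and 4 were higher and 4 lower in the inactive period. Vdr, the vitamin D receptor, was at 8958 ± 797 and 6842 ± 261 in active males and females (log2 fold 0.38 ± 0.08, adjusted p = 1.71e-04) and at 10752 ± 1356 and 6934 ± 1059 in the inactive period (log2 fold 0.64 ± 0.08, adjusted p = 1.49e-07). Its partner Rxra was higher in males too, with log2 folds of 0.49 ± 0.05 and 0.51 ± 0.05 in the active and inactive periods (adjusted p = 1.10e-09 and 6.53e-10). Pth1r was higher in males in both periods as well, while Lrp2, Cubn, Fgfr1 and Fgfr3 were lower in both. Cyp24a1 was lower in active males and higher in inactive males. The part of this signalling in the sex difference of the members was not tested.

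Magnesium is taken up by the same distal segment. Of 12 magnesium genes tested, 5 were higher and 3 lower in active than in inactive males, and 2 were higher and 1 lower in females. Slc41a1, a magnesium exchanger of the basolateral membrane, was lower in the active period in each sex, at 636 ± 73.8 and 873 ± 74.9 in active and inactive males (log2 fold -0.46 ± 0.08, adjusted p = 1.42e-04) and at 595 ± 53.6 and 832 ± 50.2 in females (log2 fold -0.49 ± 0.08, adjusted p = 3.41e-05). Cnnm4, of a family of magnesium transport proteins, was higher in the active period, by log2 folds of 0.34 ± 0.09 in males (adjusted p = 0.0104) and 0.39 ± 0.09 in females (adjusted p = 0.00282).

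In the thick ascending limb, where calcium passes between cells, 4 of 8 genes of the route were lower and 2 higher in active males than in active females, and 5 were lower and 1 higher in the inactive period. Slc12a1, the sodium-potassium-chloride cotransporter that drives the route, was at 27149.9 ± 2526 and 45719.8 ± 2494 in active males and females (log2 fold -0.76 ± 0.06, adjusted p = 4.21e-12). Cldn10, a claudin of the thick limb that favours sodium, was higher in males, at 8186 ± 700 and 6010 ± 953 (log2 fold 0.46 ± 0.09, adjusted p = 5.28e-05). Kcnj1, the potassium channel ROMK, was the 1 gene of this list called between the periods, higher in active libraries by log2 folds of 0.18 ± 0.05 in males (adjusted p = 0.0225) and 0.31 ± 0.05 in females (adjusted p = 1.35e-04).

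Inside the cell, calcium is held in stores and taken up by mitochondria. Of 12 genes of the endoplasmic reticulum and store-operated entry, 6 were lower and 1 higher in active males than in active females, and 5 were lower and 4 higher in the inactive period. Itpr2, a calcium release channel, was at 2284 ± 203 and 4384 ± 152 in active males and females (log2 fold -0.94 ± 0.06, adjusted p = 4.74e-14), and Stim1, the sensor of the stores, was at 494 ± 33.9 and 762 ± 76.2 (log2 fold -0.62 ± 0.10, adjusted p = 1.65e-06). Of 8 genes of mitochondrial calcium uptake, 5 were higher in active males, and 6 were higher and 1 lower in inactive males. Letm1, an exchanger of the inner membrane, was at 7039 ± 856 and 4205 ± 86.2 in active males and females (log2 fold 0.73 ± 0.06, adjusted p = 5.86e-12). Atp2a2, the pump that fills the stores, was higher in the active period in each sex, by log2 folds of 0.30 ± 0.07 in males (adjusted p = 0.00592) and 0.50 ± 0.07 in females (adjusted p = 1.12e-05).

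**Figure D4:**
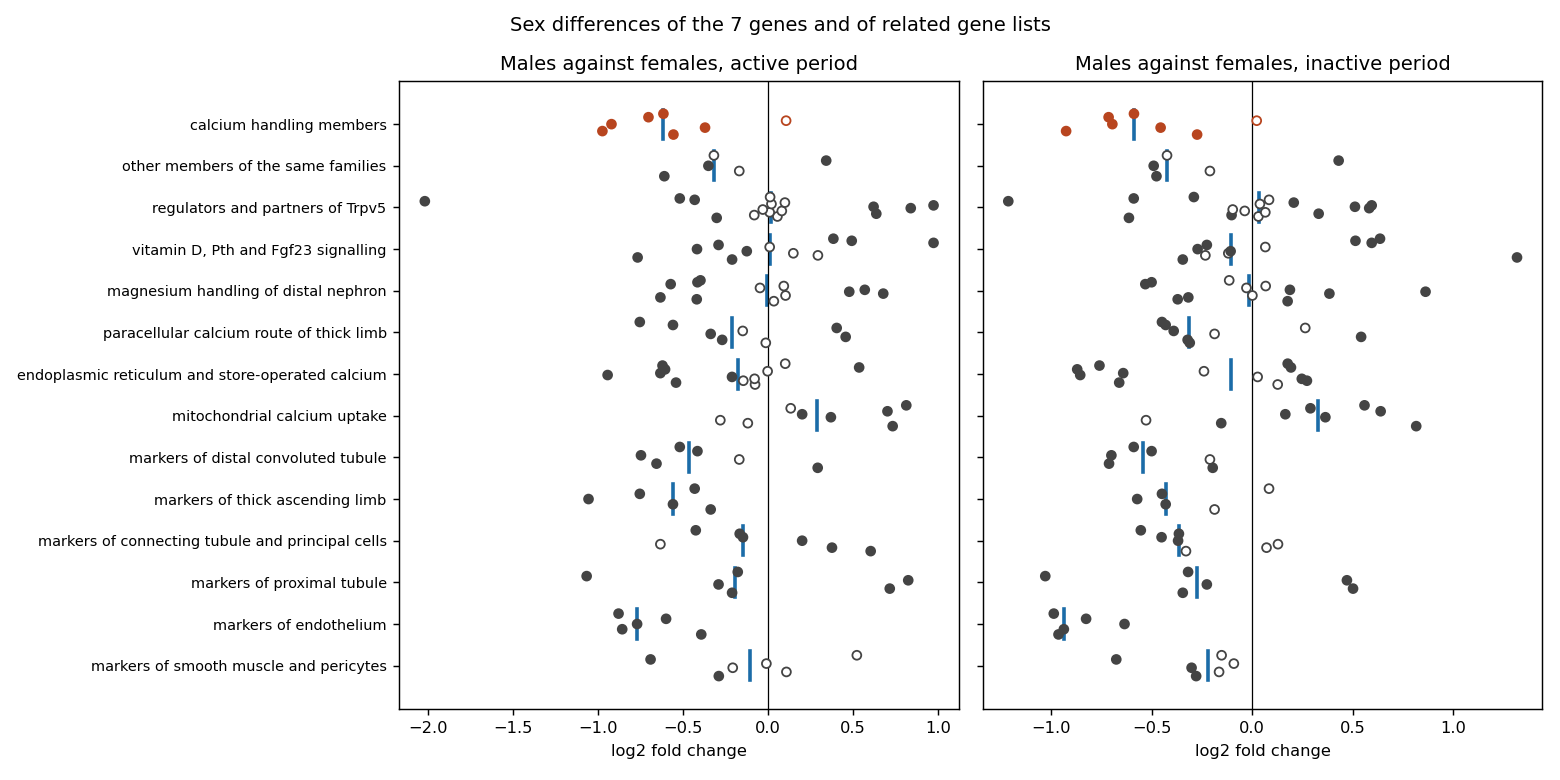
Log2 fold change of males against females (horizontal axis) for each gene of a list (rows), in the active period (left) and the inactive period (right). Filled points passed at an adjusted p under 0.05, open points did not, and the vertical bar is the median of the list. The 7 calcium genes have medians of -0.62 and -0.59, and mitochondrial uptake genes have medians of 0.29 and 0.33.

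Markers of the distal convoluted tubule were mostly lower in males in both periods. Those of the thick ascending limb were all lower in the active period, and 3 of 5 in the inactive period. Markers of connecting tubule and principal cells moved in both directions in the active period. Of 6 markers of the distal convoluted tubule, 4 were lower and 1 higher in active males, and 5 were lower in inactive males. Their sum ranged from 53476 to 60712 in active males and from 82110.4 to 97789 in active females, and from 52258 to 61677 in inactive males and 78704 to 95117 in inactive females. Slc12a3, the sodium-chloride cotransporter that defines this segment, was at 36691 ± 1826 and 61715 ± 4647 in active males and females (log2 fold -0.75 ± 0.06, adjusted p = 1.36e-12). In the same comparison the log2 folds of the 7 members ran from -0.98 in Atp2b4 to 0.11 in S100g. Of 7 markers of connecting tubule and principal cells, 3 were higher (Aqp2, Aqp3 and Fxyd4) and 3 lower (Scnn1b, Scnn1g and Hsd11b2) in active males than in active females, and 4 were lower in inactive males. Their sum ranged from 12508 to 14249 in active males and 10727 to 13800 in active females, and from 10553 to 13177 in inactive males and 13270.5 to 15589 in inactive females. The 5 markers of the thick ascending limb were all lower in active males, with sums of 67937 to 82787 and 105124 to 118670.1 in males and females. In inactive males 3 of 5 were lower, and Umod and Cldn16 were not called. The inactive sums overlapped, at 66679 to 87236 in males and 79439 to 103199 in females. The part of these markers in the sex difference of the members was not tested.

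All 5 markers of endothelium were lower in males in each period, and 3 of 5 were higher in active than in inactive libraries in each sex, Emcn, Flt1 and Tek in males and Kdr, Flt1 and Tek in females. Their sum ranged from 9330 to 11907 in active males, from 6560.2 to 10640.4 in inactive males, from 14145 to 18762 in active females and from 11139 to 15932 in inactive females. Flt1, a receptor for vascular growth factor, was at 1973 ± 201 and 1363 ± 253 in active and inactive males (log2 fold 0.54 ± 0.09, adjusted p = 2.89e-04) and at 3574 ± 301 and 2594 ± 280.5 in females (log2 fold 0.47 ± 0.09, adjusted p = 8.48e-04). The markers that did not pass in females were Pecam1, at 2803 ± 298 in active and 3033 ± 395 in inactive libraries, and Emcn, at 3859 ± 549.8 and 4064 ± 837. Of 6 markers of smooth muscle and pericytes, 2 were higher in active than in inactive males. In females 1 of the 6 was higher in active than in inactive libraries. Against females, males had 2 of the 6 lower in the active period and 3 in the inactive period, and 0 higher. The summed markers of the distal convoluted tubule averaged 57252 and 56416 in active and inactive males, and 90528 and 89119 in active and inactive females. Those of the thick ascending limb ranged from 105124 to 118670.1 in active and from 79439 to 103199 in inactive females, without overlap, with Umod, Kcnj1 and Ptger3 called higher, while in males they ranged from 67937 to 82787 and from 66679 to 87236, with Kcnj1 called higher. Of 5 intercalated cell markers 3 were higher and 1 lower in active than in inactive females, and in males their sum averaged 8614 in active and 8861 in inactive libraries. The sums of connecting tubule and principal cells averaged 13595 in active and 11743 in inactive males, with 2 of 7 called higher, and 12513 in active and 14506 in inactive females, with 2 of 7 called lower. The part of these cells in the period difference of Slc8a1, Atp2b1 and Atp2b4 was not tested.

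Within groups the 7 genes did not vary as 1 block. After the group means were taken off, and over the 24 libraries, log2 values of Calb1 correlated with those of Slc8a1 (Pearson r = 0.55), S100g (0.55) and Trpv5 (0.52). Atp2b1 correlated with Casr (0.49) and S100g with Casr in the opposite sense (-0.43). Slc8a1 and Atp2b1, which passed in the same period contrast in females, had an r of -0.15. These values are descriptions without a test, and all genes of a library share its scaling and its mix of cells.

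**Figure D5:**
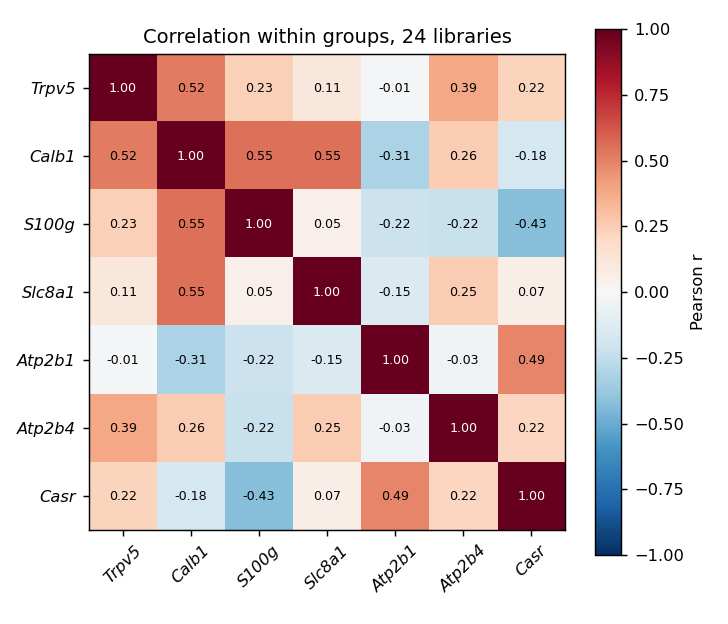
Pearson correlation (colour and number) between the 7 genes, over log2 values of 24 libraries after the mean of each group was taken off. Calb1 has its highest values with Slc8a1, S100g and Trpv5, from 0.52 to 0.55, and S100g with Casr has the lowest, -0.43.

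Measured the same way against all tested genes with a name, the gene most like Trpv5 was Scnn1g, a subunit of the sodium channel of the aldosterone-sensitive nephron (r = 0.75 over 24 libraries), followed by Slc4a3, Kif20a, Rrm2 and Ate1 (0.74 to 0.68). Calb1 was followed most closely by Mpp4, Slc51a, Ctnnbip1, Fastk and Nt5dc3 (0.77 to 0.70), and S100g by Cela1, Ctsz, Lsm3, Ndufb7 and Tmem120a (0.84 to 0.80). Slc8a1 had the lowest leading value among the members, with Clec1b, Zbtb32, Tes3-ps, Spata33 and Ints7 at 0.69 to 0.66. Atp2b1 was most like Itgav, Msl2, Tent4b, Zbtb18 and Fam208a (0.85 to 0.81), Atp2b4 most like Notch3, Zdhhc1, Zfyve27, Nsd1 and Impdh2-ps (0.75 to 0.70), and Casr most like Atf6, Bicd1, Zfp239 and AC116849.1 (0.83 to 0.76). No gene was shared between the 7 sets of the 5 most correlated genes, of which 1 gene of the Casr set is not named. Clec1b, Zbtb32, Tes3-ps, Impdh2-ps, Kif20a, Mpp4 and AC116849.1 had means of 14.7 to 73.9 normalized counts, where counting error is large. All these r values are the highest of a search over all tested genes with a name, in 24 libraries. A search that wide gives high values by chance too, so they are descriptions without a test and show no kinship of the genes.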

How the data were processed

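The authors deposited a table of normalized counts, a signal per gene in which reads were divided by 1 size factor per library. Per the submitters' processing notes, the tools were Trim Galore 0.6.10, Subread 2.0.6, featureCounts and DESeq2 1.28.1, on the build GRCm39; no source used here gives the annotation release or the strand setting. Dividing by the step of each library gave whole reads for 100% of values, within 0.05. Symbols, exon lengths and chromosomes came from an annotation of GRCm38. Groups came from the labels.

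Log2 of the normalized count plus 1 was fitted with limma 3.58.1 in R 4.3.3, over all 24 libraries, 4 group means and 17333 genes with a mean of at least 10, with a trended and robust variance prior. P-values were adjusted by Benjamini and Hochberg over all genes in each of 5 contrasts, and genes under 0.05 were called. The fit was tested on simulated data. Alternatives were pseudocounts of 0.5 and 5, no filter, a plain prior, library weights, scaling by TMM, upper quartile or equal totals, a fit of the compared groups alone, edgeR 4.0.16 and DESeq2 1.42.0 on recovered reads, a block for libraries whose titles share a number, and leaving out each library.

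Members and lists were chosen with earlier results of these data known. Named were the 7 members, up to 3 called genes of each list and contrast with the smallest p, check genes, and the 5 genes most correlated with each member; some genes that this rule names are not reported here. The highest correlation between 2 libraries was 0.988 and no pair held identical values. Lists of podocytes, intercalated cells, fibroblasts, macrophages, fat and red blood cells are given with the closing values. Intervals are at 95%.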

Additional observations from a re-analysis of the deposited data

Results flagged for a closer look

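Among the 28 sets of 6 libraries, 1 for each member and group, 2 held a library far from the other 5, and chance gives about 1 such set in 20. Calb1 in 1 library of inactive females, replicate 5, was at 31763, while the other 5 were between 22196 and 23924, with a mean of 23223 ± 865. Without that library Calb1 was called higher in active than in inactive females, as given in the report. Casr in 1 library of active females, replicate 6, was at 1068, while the other 5 were between 806 and 873, with a mean of 838 ± 26.2. Without it the log2 fold of Casr in active against inactive females was -0.023, with an adjusted p of 0.914.

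For 6 genes of the related lists the change between the periods differed between males and females, in the interaction term of limma. Given as male minus female on the log2 scale, the difference was 0.31 in Calm3, a calmodulin gene (adjusted p = 0.0185), and 0.38 in Pcbd1, a gene of the magnesium list (adjusted p = 0.0342). It was -0.33 in Canx, a calcium-binding chaperone (adjusted p = 0.0216), and -0.28 in Trpm7, a channel for magnesium and calcium (adjusted p = 0.0343). It was -0.31 in Slc12a1 (adjusted p = 0.0426) and -2.09 in Cyp24a1, the enzyme that breaks down active vitamin D (adjusted p = 0.00713). Cyp24a1 was at 1522 ± 368 in active and 8802 ± 2939.9 in inactive males, and at 2584 ± 687 in active and 3601 ± 1423 in inactive females.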

How the results depend on the processing

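Over the 35 or 36 alternatives of each contrast, 24 of them with 1 library left out, Slc8a1 and Atp2b4 kept their calls between the periods in each sex, Atp2b1 kept its call in females, and the 6 members lower in males kept theirs in both periods, with edgeR and DESeq2 too. The number of members called between the periods was 2 to 4 in males and 3 to 4 in females with 1 library left out. For the interaction it was 0, or 1 without replicate 3 of the active females. In the inactive period 7 members were called lower in males under equal totals, S100g included. That scaling called 9054 of the 17333 genes tested lower there, with a median log2 fold of -0.32, and S100g at -0.26 lay above that median.

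Values near 0 changed sign. S100g in males against females was -0.048 in the inactive period under upper quartile scaling, and -0.17 and -0.26 in the active and inactive periods under equal totals; with 1 library left out its inactive value was -0.027 to 0.068. Csf1r, a macrophage marker, was 0.15 in active males against active females and -0.13 under equal totals. The interaction of Trpv5 was 0.048 with library weights and -0.075 to 0.036 with 1 library left out, and that of Slc8a1 -0.030 to 0.071. Casr in females ran from -0.023 to 0.071 between the periods, and Atp2b1 in males from -0.071 to 0.0053. The cause was not tested.

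Over all genes, limma called 470 in the interaction, against 247 without a filter, 289 with a plain prior, 937 with DESeq2 and 276 to 780 with 1 library left out. The count moved most without replicate 4 of the active females (276), replicates 2 (293) and 3 (290) of the inactive females, and replicates 1 of the active males (780) and 3 of the inactive males (293). Between the periods in males, 2665 genes were called, and 1756 with only those groups fitted; in females that fit called 1553 higher and 1382 lower, against 1382 and 1210. The cause was not tested. Genes called higher and lower in active males against active females numbered 5219 and 5290, 4430 and 6199 under upper quartile scaling, and 2635 and 8821 under equal totals. Inactive libraries gave 4844 and 4818, 3963 and 5709, and 2051 and 9054. For active against inactive they were 1461 and 1204 in males, 1181 and 1521 by upper quartile, and 1130 and 1458 by equal totals. In females they were 1382 and 1210, 1199 and 1415, and 1020 and 1571.

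Titles give a male and a female library of 1 period the same number, and the labels do not say whether it pairs the samples. Deviations of same-numbered libraries correlated at -0.10 to 0.12 over 12 pairs, 1 of them over 0.1. Of the 12, 4 had their own number as the best partner. These values cannot decide whether the numbers mark a pairing. With the number as a replicate block, 0, 6 and 6 members were called in the interaction and in males against females in the active and inactive periods, and 531, 10297 and 9448 of all genes. The periods share no numbers, so the block was not run there. Depth limited the members little: counting error gave at most 5.75% in any library, while the coefficient of variation between libraries of a group ran from 3.59% to 17.6%.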

Other observations

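Markers of other cells were summed in the same way. Podocyte markers were lower in males in 5 of 5 genes in each period, with sums averaging 9616 in active males, 9855 in inactive males, 17079.5 in active females and 15815 in inactive females. Intercalated cell markers were lower in 4 of 5 genes in active males and 3 of 5 in inactive males, with sums averaging 8614 in active males, 8861 in inactive males, 12636 in active females and 10836 in inactive females. Fibroblast markers were lower in 4 of 5 genes in active males and in 5 of 5 in inactive males. Of 5 macrophage markers 1 was higher and 1 lower in active males, and 4 were lower in inactive males. Of the 9 tested markers of fat and of red blood cells, limma called 0 over the 5 contrasts, with 1 value at an unadjusted p under 0.05, and edgeR and DESeq2 called 0 and 0. The sums of the 5 fat markers ran from 48.7 to 1367 over all libraries.

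Of the 6 proximal tubule markers 4 were lower and 2 higher in males in each period. Slc34a1, the sodium-phosphate cotransporter that lowers phosphate loss, was at 118356 ± 7548 and 67082 ± 8194 in active males and females (log2 fold 0.83 ± 0.06, adjusted p = 1.02e-12). Slc5a12, a lactate transporter, went the other way, at 4083 ± 890.0 and 8468 ± 1197 (log2 fold -1.07 ± 0.11, adjusted p = 1.41e-08).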
